A study of Rattus norvegicus with 4 samples.

Results

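The genes Csf1, Csf2 and Csf3 encode the colony-stimulating factors M-CSF, GM-CSF and G-CSF. They were followed through all 7 probe sets that the array annotation assigns to exactly 1 of them, out of 31099 probe sets on the array: 4 for Csf1, 2 for Csf2 and 1 for Csf3. The cells were smooth muscle cells from the aorta of Sprague-Dawley rats, kept in culture, which had 3 days in medium with serum and 3 days without it before the 24 h treatment. The IL-1b culture received interleukin-1b at 2.5 ng/mL, and its vehicle culture received acetic acid at 10 mM with bovine serum albumin (BSA) at 0.1%. The PDGF-DD culture received platelet-derived growth factor DD at 30 ng/mL, and its vehicle culture received BSA at 0.01%. No genetic change is given for any culture, and the labels do not say how many animals the cells came from. Each of the 4 groups is 1 sample on 1 array, so there is no replicate spread, no test and no p-value, and the number of arrays limits the precision of every value below.

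Colony-stimulating factors are secreted proteins that keep cells of the myeloid lineages alive and make them divide and mature. M-CSF acts through the receptor tyrosine kinase encoded by Csf1r on monocytes and macrophages. GM-CSF acts through a receptor of a specific alpha chain (Csf2ra) and a beta chain (Csf2rb) on granulocytes, macrophages and dendritic cells, and G-CSF acts through Csf3r on neutrophils and their precursors. Many stromal cells make M-CSF without stimulation, whereas GM-CSF and G-CSF are typically made after an inflammatory stimulus such as interleukin-1, which signals through NF-kappaB and MAP kinases. Their messenger RNAs carry AU-rich elements that bring about rapid decay.

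The deposited intensities were scaled to a common trimmed mean, and values under a floor of 28.1 were treated as not separable from background. A difference is called where it is at least 2-fold, and where 1 array lies at the floor the fold is a lower bound. The vehicle arrays, which received no factor, stood apart from each other: 10.5% of genes were at least 2-fold different between them. All 8 listed G2/M genes were called higher on the PDGF-DD vehicle array, where 5.79% of genes were, and their median log2 ratio over the IL-1b vehicle array was 2.49. Each factor is therefore given against its own vehicle and also against the other vehicle array. The smooth muscle label was checked on 9 marker genes, of which 8, 9, 8 and 8 were above the floor on the IL-1b, IL-1b vehicle, PDGF-DD and PDGF-DD vehicle arrays. Acta2 (smooth muscle alpha-actin) had intensities of 2798 with IL-1b against 9980 with its vehicle, and of 739 with PDGF-DD against 5504 with its vehicle.

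Csf3 and Csf2 were bright on the IL-1b array and at the floor on the other 3 arrays, and Csf1 was above the floor on all 4 arrays. Csf3, by its single probe set 1369529_at, had an intensity of 1885 with IL-1b, against 14.2 with the IL-1b vehicle. It read 7.74 with PDGF-DD and 21.6 with the PDGF-DD vehicle. The IL-1b array is the one array above the floor for Csf3, and the difference from the vehicle was at least 67.1-fold (log2 ratio at least 6.07). In such bulk samples, fewer cells of a type and less RNA per cell cannot be told apart.

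Csf2 had an intensity of 620 with IL-1b by probe set 1371228_at, against 2.93 with the IL-1b vehicle. The same probe set read 3.43 with PDGF-DD and 19.9 with the PDGF-DD vehicle. The pattern over the arrays was that of Csf3, with a difference of at least 22.1-fold (log2 ratio at least 4.46). The other Csf2 probe set, 1371227_at, carries the same transcript identifier but did not show the difference. It read 14.5 with IL-1b against 1.86 with the vehicle, and 6.19 with PDGF-DD against 7.01 with its vehicle, all under the floor, so it gives no fold. The Csf2 difference thus rests on 1 of 2 probe sets, on 1 array, and why the probe sets disagree was not tested.

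Of the members that were above the floor on the IL-1b array alone, Csf2 was matched in the RefSeq promoter table, and its upstream sequence is shown because this is where a cytokine element of GM-CSF and G-CSF genes can be looked for. The stretch lies on the minus strand at chr10:38889724-38889923 (GRCr8) and covers 250 to 51 bases before the annotated start, where the gene's first letters are ATG. Capitals mark a match to the CK-1 cytokine element, GAGATTCCAC, and a TATAA box.

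Csf2 upstream: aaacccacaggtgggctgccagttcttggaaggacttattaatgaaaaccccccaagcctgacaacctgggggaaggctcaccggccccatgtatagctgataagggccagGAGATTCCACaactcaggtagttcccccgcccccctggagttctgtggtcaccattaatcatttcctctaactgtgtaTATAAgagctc

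The CK-1 match lies 139 to 130 bases and the TATAA match 61 to 57 bases before the annotated start, and the matches do not overlap. CK-1 is a cytokine-type element that was described in GM-CSF and G-CSF promoters. Searched on both strands in the 250 bases before the start, the CK-1 consensus matched 1.55% of 33469 promoters and TATAA 24%. The kappaB consensus (6.33% of promoters) and the AP-1 motif TGANTCA (6.34%) had no exact match in the window of Csf2. This says only that these letters are absent from it. A site that departs from the searched pattern by a base would be missed, so a lack of such sites cannot be read from it. The matches are a description of the sequence; no binding was measured.

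**Figure D1:**
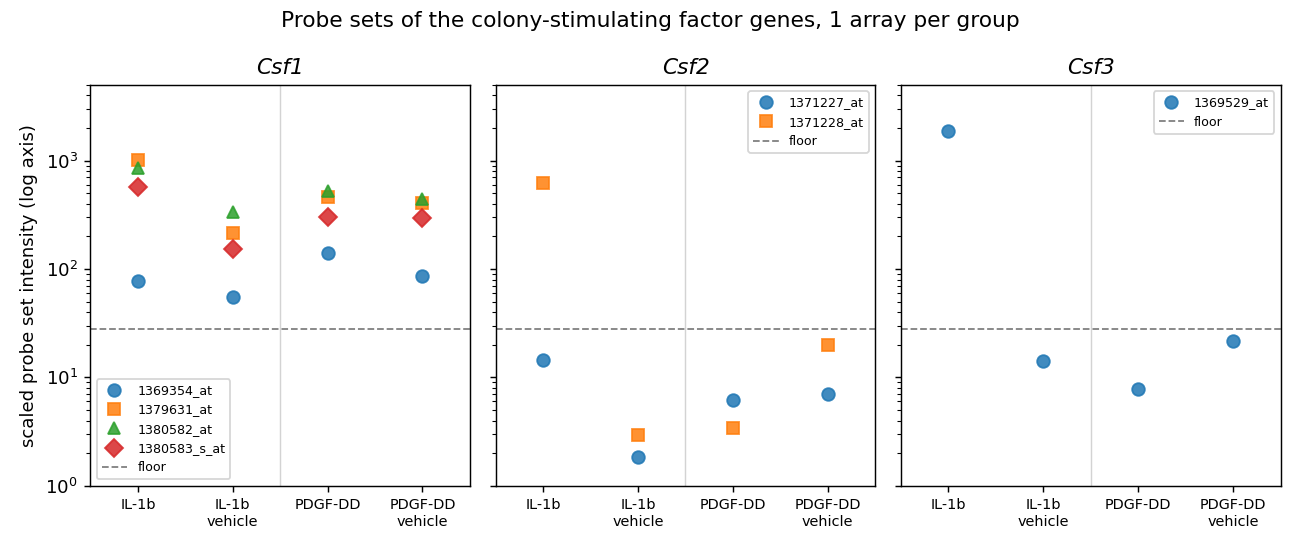
Scaled intensity (log axis) of each probe set of Csf1, Csf2 and Csf3 on the 4 arrays, 1 array per group, with the floor of 28.1 as a dashed line. Csf3 (1885) and 1 probe set of Csf2 (620) stand above the floor on the IL-1b array alone, while the 4 probe sets of Csf1 are above it on every array; heights are not comparable between probe sets.

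Csf1 was higher with IL-1b than with its vehicle by all 4 probe sets, and by 3 of them at least 2-fold. Probe set 1379631_at read 1012 with IL-1b against 213 with its vehicle, and 466 with PDGF-DD against 407 with its vehicle. Probe set 1380582_at, which has the highest mean log2 intensity and stands for the gene in counts over all genes, read 855 with IL-1b against 336 with its vehicle, and 521 with PDGF-DD against 447 with its vehicle. These probe sets put the arrays in the same order, IL-1b first, then PDGF-DD, the PDGF-DD vehicle and the IL-1b vehicle.

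Probe set 1380583_s_at read 567 with IL-1b against 152 with its vehicle, and 303 with PDGF-DD against 294 with its vehicle. It shares its transcript identifier with 1380582_at, and the suffix marks probes that can match more than 1 transcript, so the probe sets of Csf1 are not independent readings. Probe set 1369354_at was the dimmest of the 4 and read 78.0 with IL-1b against 55.0 with its vehicle, and 140 with PDGF-DD against 86.4 with its vehicle. It differed from the others in having its highest value on the PDGF-DD array. In all 4 probe sets the IL-1b vehicle array was the lowest.

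The Csf1 folds of IL-1b over its vehicle were 4.76, 3.73 and 2.55 for 1379631_at, 1380583_s_at and 1380582_at, and 1.42 for 1369354_at, with a median log2 ratio of 1.62. Of the 7 member probe sets, 6 were tested, being above the floor on at least 1 array of the pair. IL-1b had 5 of them called higher and 0 called lower, beside 5.38% and 5.87% of all tested probe sets. Csf2 and Csf3 entered that count through the array on which they are high, so for them the count adds nothing to the levels above. For Csf1, which is above the floor everywhere, the array taken as control changed the result. Against the PDGF-DD vehicle array the Csf1 log2 ratios of IL-1b ran from -0.15 to 1.32, with a median of 0.94, and 1 of the 4 probe sets was at least 2-fold higher. By that control 3 of 6 tested member probe sets were called, beside 4.8% of probe sets. The bounds of Csf2 and Csf3 could not change with the control, because both vehicle arrays are held at the floor for them.

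With PDGF-DD no member differed 2-fold from its vehicle. The Csf1 folds of PDGF-DD over its vehicle lay between 1.03 and 1.62, all above 1, with a median log2 ratio of 0.21. By comparison, 68% of 9512 genes above the floor on both vehicle arrays differed between those arrays by less than 0.49 on the log2 scale; 3 of the 4 Csf1 ratios were below that and 1369354_at, at 0.70, was above it. Csf2 and Csf3 were at the floor on both arrays of the pair and have no fold. Of the 7 probe sets 4 were tested. Of these 0 were at least 2-fold higher, beside 3.64% of all tested probe sets, and 0 were lower, beside 4.75%, a count too small to set against these shares. Against the IL-1b vehicle array the Csf1 folds of PDGF-DD lay between 1.55 and 2.55. There 2 of the 4 tested member probe sets, both of Csf1, were called higher, beside 9.07% of probe sets.

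The vehicle arrays themselves differed in Csf1. All 4 Csf1 probe sets read higher with the PDGF-DD vehicle than with the IL-1b vehicle, by 1.33-fold to 1.93-fold (median log2 ratio 0.79). None of the 4 tested member probe sets reached 2-fold, beside 5.56% of all tested probe sets that were at least 2-fold higher. The vehicles differ in composition, and that difference cannot be told apart from a difference between cultures or arrays.

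Setting the factors beside each other, the IL-1b log2 ratio of Csf1 less its PDGF-DD log2 ratio, each over its own vehicle, was 2.05, 1.85 and 1.13 by 3 probe sets and -0.19 by 1369354_at. The direction for Csf1 therefore depended on the probe set. Csf2 and Csf3 have no fold in the PDGF-DD pair, so no such difference is given for them. On the arrays themselves, without vehicles, Csf3 and Csf2 were at least 67.1-fold and at least 22.1-fold higher with IL-1b than with PDGF-DD, and Csf1 gave log2 ratios from -0.84 to 1.12.

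**Figure D2:**
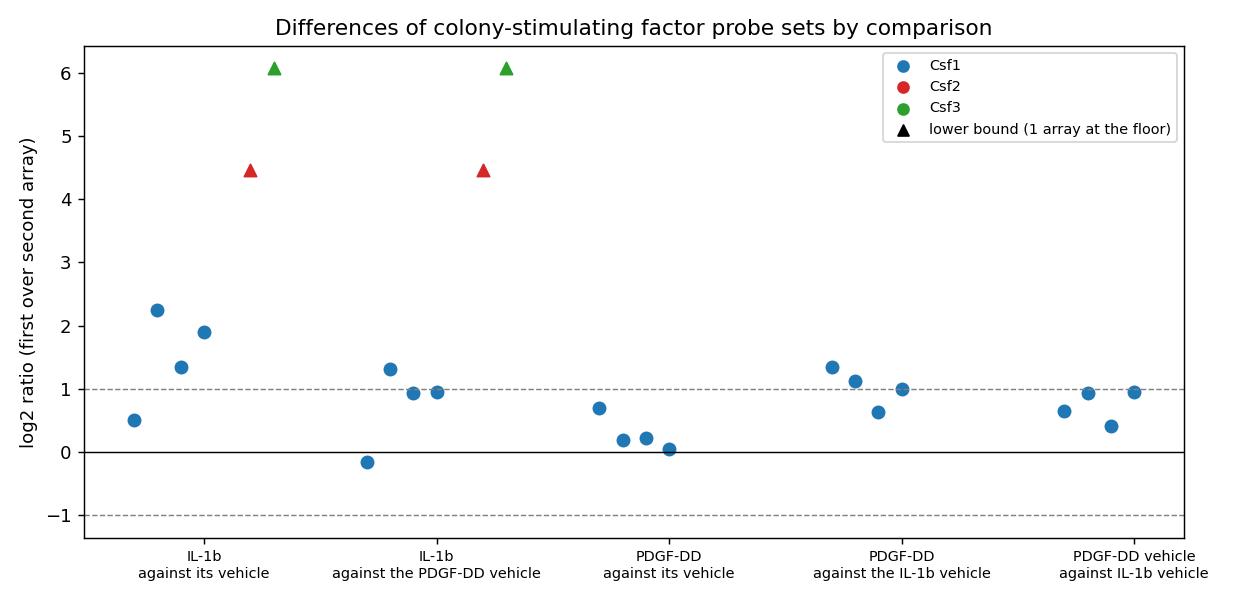
Log2 ratio of the first over the second array for each member probe set, by comparison, leaving out those with both arrays at the floor; triangles are lower bounds and dashed lines mark 2-fold. Csf3 and Csf2 stand at 6.07 and 4.46 with IL-1b against both vehicles, which are held at the floor for them. The Csf1 ratios of IL-1b lie lower against the PDGF-DD vehicle (median 0.94) than against its own vehicle (median 1.62).

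Genes with a like pattern over the 4 arrays were ranked by the root mean square difference of their centred log2 intensities, over 10788 named genes. The rule named Saa3, an acute phase serum amyloid protein, Wfdc21, Ccl5, a chemokine for T cells and monocytes, and Lyz2, a lysozyme, for Csf3, at 0.06 to 0.23 log2 units from it. It named Mmp3, the matrix protease stromelysin-1, and Plet1 for Csf2, at 0.08 and 0.17 log2 units. All of these are at the floor on the same 3 arrays as Csf2 and Csf3, so the measure depends only on how far each probe set stands above the floor with IL-1b, and no order is read from it. Saa3 read 1717 with IL-1b against 23.9 with its vehicle, and 11.7 with PDGF-DD against 21.4 with its vehicle. Mmp3 read 547 with IL-1b against 9.95 with its vehicle, and 8.09 with PDGF-DD against 17.3 with its vehicle. The rule also named Mgst1, a microsomal glutathione transferase, and Rhou for Csf2, but both were above the floor on all 4 arrays, with measured folds of 29.0 and 14.3 with IL-1b over its vehicle.

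Some genes were above the floor on 1 array alone. Of 10885 genes above it on at least 1 array, those at least 2-fold above it on 1 array and at it on the other 3 numbered 54 for IL-1b, 34 for the IL-1b vehicle, 11 for PDGF-DD and 3 for the PDGF-DD vehicle. At least 16-fold above it on the IL-1b array alone were 9 genes: Csf2, Csf3, Ccl5, Cxcl2, Lyz2, Mmp3, Plet1, Saa3 and Wfdc21. The 16-fold size was chosen after the values were seen, and it took 0 genes for each of the other 3 arrays. Cxcl2, a neutrophil chemokine, was also named after its values were seen.

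The genes nearest to Csf1 were Prrx1 (0.02), a mesenchymal homeobox factor, Tmem250 (0.04), Psmb9 (0.06), a subunit of the immunoproteasome, and RT1-S3 (0.07), an MHC class I gene. Psmb9 read 792 with IL-1b against 323 with its vehicle, and 457 with PDGF-DD against 439 with its vehicle. This likeness is to probe set 1380582_at.

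The receptors of the 3 factors were dark or nearly so. Csf1r was under the floor on all 4 arrays, with 19.2 with IL-1b against 22.9 with its vehicle and 24.7 with PDGF-DD against 26.3 with its vehicle. Csf2rb and Csf3r were also under the floor on all 4 arrays, at 13.1 to 26.0 and 2.33 to 12.5. Csf2ra was just above it on a pair of arrays, with 35.2 with IL-1b against 42.1 with its vehicle, and under it with PDGF-DD (23.6) and its vehicle (23.9). None of the 4 receptor genes was called in any comparison with either vehicle. In the IL-1b pair 1 of 4 was measurable, and 11.6% of all tested genes were called either way.

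Adam17, the sheddase that can release membrane-bound M-CSF, read 1091 with IL-1b against 792 with its vehicle, and 594 with PDGF-DD against 621 with its vehicle. Its partner proteins Rhbdf1 and Rhbdf2 were 1.54-fold and 1.54-fold higher with IL-1b and 1.19-fold and 1.09-fold lower with PDGF-DD. None of the 3 shedding genes reached 2-fold in either factor's own pair, beside 11.6% of genes called either way with IL-1b and 8.91% with PDGF-DD. Against the PDGF-DD vehicle array Rhbdf1 was 2.10-fold, Adam17 1.76-fold and Rhbdf2 1.33-fold higher with IL-1b. There 1 of 3 was called higher, beside 5.44% of genes, a count too small to set against that share. Compared with the IL-1b vehicle array, the PDGF-DD array read 1.63-fold lower for Rhbdf1, 1.33-fold lower for Adam17 and 1.07-fold higher for Rhbdf2.

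Of 13 other blood cell growth factors and related cytokines, 11 were on the array under 1 symbol and 5 were above the floor in the IL-1b pair. With IL-1b, 2 were called higher (Il6 and Il11) and 2 lower (Il15 and Kitlg), a median log2 ratio of -0.50 against 0.02 over all genes, of which 6.15% were higher and 5.42% lower. Il6, which encodes a cytokine of acute inflammation, read 3645 with IL-1b against 16.1 with its vehicle, and 324 with PDGF-DD against 445 with its vehicle. Unlike Csf2 and Csf3, it was above the floor on both PDGF-DD arrays. Il11, a cytokine of the same receptor family, read 127 with IL-1b against 3.93 with its vehicle, and 134 with PDGF-DD against 4.10 with its vehicle. Both vehicle arrays were at the floor for Il11, so its lower bounds are the same by either, 4.54-fold with IL-1b and 4.77-fold with PDGF-DD. Against the PDGF-DD vehicle array Il6 was 8.19-fold higher with IL-1b.

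Il15, a growth factor for lymphocytes, was lower with both factors. It read 32.8 with IL-1b against 308 with its vehicle, and 34.7 with PDGF-DD against 76.5 with its vehicle, or 9.38-fold and 2.20-fold lower. Against the other vehicle array it was 2.33-fold lower with IL-1b and 8.87-fold lower with PDGF-DD. Kitlg, the stem cell factor gene, read 170 with IL-1b against 390 with its vehicle (2.29-fold lower), and 645 with PDGF-DD against 237 with its vehicle (2.71-fold higher). Its other 3 probe sets had log2 ratios of -0.79 and at least 0.13 with IL-1b, 1 being at the floor on both arrays, and of at least 0.89, 1.77 and 1.81 with PDGF-DD. By the probe set that stands for Kitlg, both calls were lost against the other vehicle array. It was 1.39-fold lower there with IL-1b and 1.65-fold higher with PDGF-DD. The probe set with ratios of -0.79 and 1.81 was called in both comparisons there, 2.43-fold lower with IL-1b and 4.93-fold higher with PDGF-DD. The probe set at 1.77 was at least 4.13-fold higher there with PDGF-DD and was not called with IL-1b. The probe set at 0.89 was called with neither factor. Tslp, an epithelial and stromal cytokine, read 46.8 with IL-1b against 66.3 with its vehicle, and 48.1 with PDGF-DD against 26.7 with its vehicle. It was 1.42-fold lower with IL-1b and, with the vehicle at the floor, at least 1.71-fold higher with PDGF-DD, and was called in neither pair. In the PDGF-DD pair 5 of the 11 were measurable, with Il11 and Kitlg higher and Il15 lower, a median of 0.78 against 0.01 over all genes, of which 4.24% were higher and 4.67% lower. Against the other vehicle array, Il6 and Il11 were called higher and Il15 lower with each factor, out of 5 measurable genes. Of all genes, 5.44% were higher and 4.97% lower there with IL-1b, and 9.64% and 10.3% with PDGF-DD. Il11 entered these counts only through the arrays on which it is high. Il34, which encodes the other ligand of the Csf1r receptor, was under the floor on all arrays, as were Il3 and Il5, whose products share the Csf2rb beta chain, and Il7, Lif and Epo.

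Transcription factors known to act on promoters of these cytokines were called higher with IL-1b for 7 of 18 measured members and lower for 1; their median log2 ratio was 0.85 beside 0.02 over all genes, of which 6.15% were higher and 5.42% lower. Cebpb, which binds cytokine and acute phase promoters, read 4760 with IL-1b against 1119 with its vehicle, and 1554 with PDGF-DD against 3113 with its vehicle. Its relative Cebpd read 3171 with IL-1b against 453 with its vehicle, and 1756 with PDGF-DD against 3117 with its vehicle. Cebpd on the PDGF-DD vehicle array was close to its level on the IL-1b array. Whether any of these factors acts on Csf2 or Csf3 in these cells was not tested.

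Among the NF-kappaB subunits, Nfkb2 was 2.32-fold higher with IL-1b and 2.03-fold lower with PDGF-DD, while Nfkb1, Relb and Rela were higher with IL-1b by 1.87-fold, 1.59-fold and 1.41-fold. The AP-1 gene Junb was 3.22-fold higher with IL-1b, Fosl2 2.50-fold and Fosl1 at least 5.52-fold, and Runx1, a haematopoietic factor, 3.25-fold. The other probe set was 1.48-fold higher for Fosl2, under 2-fold, and 3.20-fold higher for Runx1. Jun was 2.11-fold lower with IL-1b and 4.53-fold higher with PDGF-DD. The other Jun probe sets gave log2 ratios of -0.47 and -0.62 with IL-1b, under 2-fold, and of 1.63 and 1.27 with PDGF-DD. With PDGF-DD 4 of 17 were called higher (Jun, Fos, Fosl1 and Egr1) and 2 lower (Nfkb2 and Cebpb), beside 4.24% and 4.67% of genes, with a median of -0.07. Against the IL-1b vehicle array 8 of 17 were called higher and 0 lower with PDGF-DD, beside 9.64% and 10.3% of genes, with a median of 0.88, so that neither lower call was kept. Against the PDGF-DD vehicle array only Fosl1 and Egr1 of 18 measured factors were called higher with IL-1b and 0 lower, beside 5.44% and 4.97% of genes, with a median of 0.45.

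The messenger RNA decay and stability factors had a median log2 ratio of 0.19 with IL-1b, and 1 of 11 was called higher, beside 6.15% of genes. That gene was Zc3h12a, an RNase that degrades inflammatory transcripts, at 1876 with IL-1b against 95.5 with its vehicle (19.6-fold) and 177 with PDGF-DD against 281 with its vehicle. Against the PDGF-DD vehicle array it was 6.67-fold higher with IL-1b, and it was again the 1 gene of 11 called, beside 5.44% of genes higher. Zfp36, the tristetraprolin gene whose product binds AU-rich elements of GM-CSF messenger RNA, read 514 with IL-1b against 342 with its vehicle, and 471 with PDGF-DD against 589 with its vehicle, under 2-fold in both pairs. Its relative Zfp36l1 read 4372 with IL-1b against 2535 with its vehicle, and 1634 with PDGF-DD against 4403 with its vehicle, which made it 2.69-fold lower with PDGF-DD. It was the 1 member of 11 called in that pair, beside 4.67% of genes lower, with a list median of -0.09, and against the IL-1b vehicle array it was 1.55-fold lower and not called.

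Of the genes that carry signals from colony-stimulating factor receptors, IL-1b had 4 of 15 measured called higher and 0 called lower, beside 6.15% and 5.42% of genes, with a median of 0.29. The kinase genes Jak2 and Lyn were 3.90-fold and 3.88-fold higher, Stat5a, a transcription factor activated by GM-CSF, was 2.98-fold higher, and the feedback inhibitor Socs3 was at least 5.94-fold higher. The other Lyn probe set, with the vehicle at the floor, was at least 1.49-fold higher and was not called. With PDGF-DD 0 of 12 were called in either direction, beside 4.24% of genes higher and 4.67% lower, with a median of -0.07. Against the PDGF-DD vehicle array Stat5a and Lyn were the 2 of 14 called higher with IL-1b, beside 5.44% of genes, at 2.24-fold and 3.15-fold. The other Lyn probe set was 1.28-fold higher there. Against the IL-1b vehicle array Jak2 and Socs3 were the 2 of 14 called higher with PDGF-DD, beside 9.64% of genes.

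**Figure D3:**
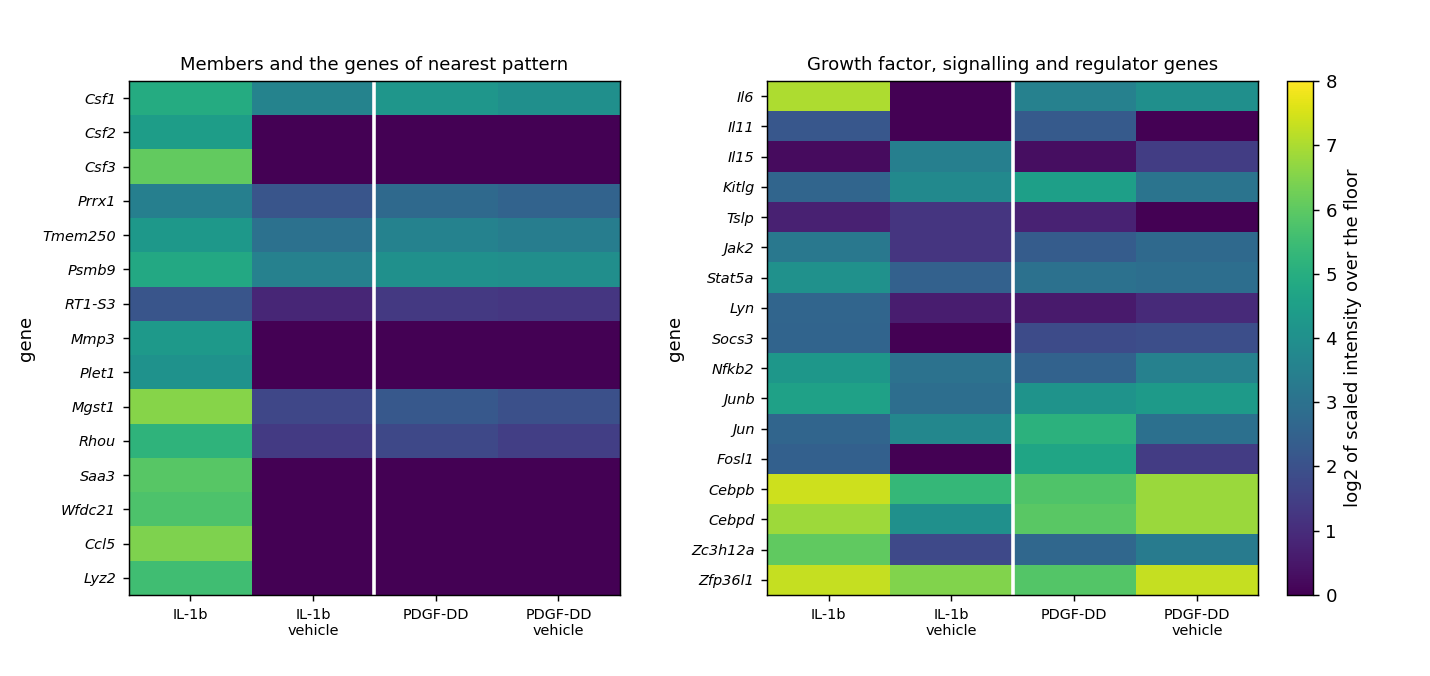
Log2 of scaled intensity over the floor (colour) on each of the 4 arrays, 1 per group, for the members with their nearest genes (left) and for growth factor, signalling and regulator genes (right); rows are to be read across, since levels are not comparable between probe sets. Csf2, Csf3, Mmp3, Plet1, Saa3, Wfdc21, Ccl5 and Lyz2 are above the floor on the IL-1b array alone, whereas Mgst1, Rhou, Il6, Cebpb and Cebpd are above it on the PDGF-DD arrays too.

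Markers of cells that make or respond to these factors were examined on the same arrays. Of 18 leukocyte and macrophage markers, 6 were above the floor with IL-1b and 1 on each other array, and their summed intensity was 2896 with IL-1b, against 1289 with its vehicle, and 1267 with PDGF-DD against 1328 with its vehicle. Cd14 (between 1117 and 1333) and Lyz2 (1305 with IL-1b against 28.0 with its vehicle) made up most of these sums. Of the other 16 markers, 4 were above the floor with IL-1b, the highest at 41.7, and 0 on each of the other arrays. The pan-leukocyte gene Ptprc did not exceed 4.83 on any array, and the macrophage genes Cd68 and Itgam did not exceed 9.61 and 2.81. The highest of the 4 was Adgre1, another macrophage gene. Of 8 endothelial markers 1 was above the floor with IL-1b and 2 with its vehicle, and 1 with PDGF-DD and 1 with its vehicle, the highest at 52.6 on any array. The part of other cell types in the Csf2 and Csf3 values was not tested.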

How the data were processed

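Total RNA was taken from 4 cultures, 1 per group, and labelled as biotinylated cRNA for Affymetrix arrays, per the labels' protocols. The authors deposited linear intensities, 1 per probe set, from MAS5 (per the submitters' processing notes); the version and target it ran with were not given in the sources used here. Detection calls were not used. All deposited columns had a median intensity of 53.3. Arrays were rescaled to a common mean after trimming 2% at each end (factors 1.01, 1.03, 0.951 and 1.01 for IL-1b, its vehicle, PDGF-DD and its vehicle). Values under the 40th percentile of all probe sets (28.1) were set to it before taking log2. Genes were named from a platform annotation of 2016, and all 7 member probe sets carried the same symbol in the GRCr8 RefSeq table. A gene in counts or lists is its probe set of highest mean log2 intensity, which gave 14218 genes. Differences are log2 ratios between single arrays (Python 3.11.15, pandas 2.3.3), called at 2-fold, and no test was possible. The steps were checked on simulated data in which the changed genes were bright at baseline and the noise was smaller than the spread between the vehicle arrays. Genes at the floor on the control array, as Csf2 and Csf3 are, were not covered by that check. The members, lists and naming rule were chosen with earlier results of these data known. The rule names all member probe sets, all receptors, growth factors and shedding genes, up to 4 called genes of each other list, and the 4 genes of nearest pattern per member; some further list genes were named after their values were seen. Lists of endothelial, G2/M and reference genes served as checks; the 6 reference genes on the array had median log2 ratios of 0.10 with IL-1b and -0.13 with PDGF-DD. Alternatives tried were other scalings, floors, control arrays, probe set summaries and filters.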

Additional observations from a re-analysis of the deposited data

Results flagged for a closer look

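Among the members and the listed genes, 4 differed by at least 2-fold in opposite directions with IL-1b and with PDGF-DD, each against its own vehicle. Over all tested genes, 11.6% differed at least 2-fold either way with IL-1b and 8.91% with PDGF-DD. The share that did so in opposite directions was not counted over all genes, so no excess is read from the 4. The IL-1b log2 ratio less the PDGF-DD log2 ratio was 3.09 for Cebpb (4.26-fold higher with IL-1b and just past 2-fold lower with PDGF-DD) and 2.23 for Nfkb2 (log2 ratios 1.22 with IL-1b and -1.02 with PDGF-DD). It was -3.26 for Jun (-1.08 with IL-1b and 2.18 with PDGF-DD) and -2.64 for Kitlg (-1.19 and 1.44). With 1 array per group these differences were not tested. By the probe sets that stand for the genes, none of the 4 differed by at least 2-fold in opposite directions against the other vehicle array. There the log2 ratios with IL-1b and with PDGF-DD were 0.61 and 0.47 for Cebpb, where the PDGF-DD sign turned, 0.72 and -0.53 for Nfkb2, -0.35 and 1.45 for Jun, and -0.48 and 0.73 for Kitlg. Another Kitlg probe set, above the floor on all 4 arrays, did differ in opposite directions against the other vehicle array. Its log2 ratios there were -1.28 with IL-1b and 2.30 with PDGF-DD. Against its own vehicle its IL-1b ratio was under 2-fold, at -0.79. None of the colony-stimulating factor genes was among the 4.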

How the results depend on the processing

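By the probe sets that stand for them, Csf2 and Csf3 stayed at least 2-fold higher with IL-1b under every setting tried. The size of the bound moved with the floor. The other Csf2 probe set, 1371227_at, was at the floor on both arrays of the IL-1b pair at every floor tried. Without a floor its log2 ratio was 0.77, under 2-fold. The difference between the factors' log2 ratios is also given here with values held at each floor, and is no bound. With the floor at the 30th percentile the log2 ratio was 5.29 for Csf2 and 6.89 for Csf3, and the difference 5.62 and 7.34. At that floor (15.9) the IL-1b array was not alone, as the PDGF-DD vehicle array was above it for Csf2 (19.9) and Csf3 (21.6). The PDGF-DD pair then gave -0.33 and -0.45, and the PDGF-DD vehicle over the IL-1b vehicle 0.33 and 0.45. With the floor at the 50th percentile the ratio and the difference were both 3.54 for Csf2 and both 5.14 for Csf3. With log2(intensity + 16) and no floor the Csf2 ratio was 5.07 and its difference 5.96, and the Csf3 difference was 6.64; the PDGF-DD pair then gave -0.89 for Csf2 and -0.66 for Csf3, and the PDGF-DD vehicle over the IL-1b vehicle 0.92 for Csf2. These follow from where low values are held. Averaging both Csf2 probe sets, a setting chosen after seeing the data, gave 2.23 for the ratio and for the difference. In that average 1371227_at is held at the floor. The count of genes at least 2-fold different with PDGF-DD was 904, and 2076 against the IL-1b vehicle array. The representative Csf1 probe set kept its sign throughout but was under 2-fold, at 0.94, with IL-1b against the PDGF-DD vehicle array. Of the alternative values for genes and counts, 83 moved by less than 0.49 log2 units, or by less than 1.5 times for counts, and 17 by more. Some of the 83 could not move, such as ratios with both arrays held at the floor. Csf1 lay above every floor tried, so changes of floor could not move it either. For the member probe sets that do not stand for a gene, 81 values moved by less than 0.49 and 11 by more. The latter include Csf1 ratios taken against the other vehicle array. No paired analysis was possible because each group had 1 array.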
